A study of Macaca mulatta with 6 samples.

Results

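The nuclear genes for subunits of the oxidative phosphorylation machinery were taken from the gene table by name, as every row whose symbol begins with NDUFA, NDUFB, NDUFC, NDUFS, NDUFV, SDHA to SDHD, UQCR, COX4 to COX8 or ATP5, with the assembly factors named NDUFAF and SDHAF left out. The rule found 61 of 28536 genes. Complex I held 37 of them, complex II held 4 and complex V, the ATP synthase, held 18. The remaining 2 were NDUFA4, which carries a complex I name but is now counted as a subunit of cytochrome c oxidase, and its paralogue NDUFA4L2. Subunits of complex III, the COX-named subunits of complex IV and the mitochondrially encoded subunits were not analysed here.

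The libraries came from rhesus monkey tracheal tissue in a study of endotracheal intubation under general anaesthesia, which set a modified lubricated catheter against a traditional one and sequenced mucosal tissue. The control group, 3 libraries, received normal saline. The Oxy@Lipo/Gel group, 3 libraries, was intubated with a tracheal lubricant coated with the material of that name. Strain, age and sex of the animals are not in the labels, and intubation is stated for the Oxy@Lipo/Gel group alone. The labels call the replicates biosamples and name no animals, so the p-values measure spread between samples that may not be separate animals. The tissue field of all 6 samples names a catheter and the text on RNA extraction refers to cell lines, whereas the treatment text names tracheal tissue. All 8 epithelial markers of trachea that were checked, EPCAM, CDH1, KRT8, KRT18, SCGB1A1, SCGB3A1, MUC5B and FOXJ1, had counts in the libraries.

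Oxidative phosphorylation takes place in the inner mitochondrial membrane, where complex I oxidises NADH and complex II oxidises succinate, both passing electrons to ubiquinone. The electrons go on through complex III and cytochrome c to complex IV, and the proton gradient built on the way drives rotation of the ATP synthase. Most subunits are encoded in the nucleus, are made on cytosolic ribosomes and are imported. In the airway, multiciliated cells are rich in mitochondria, and so are the serous cells of submucosal glands.

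Library totals ran from 17097177 to 23405294 counts. The single most abundant gene took 7.73% to 10.4% of the counts in 5 libraries and 19.7% in control 2. Control 2 also had the lowest level of the list of 8 epithelial markers, with a summed 4354 FPKM (fragments scaled to gene length and library total), against 18290 to 68170 FPKM in the other 5 libraries. A list of 7 basal epithelial markers was in contrast highest in control 2, at 5093 FPKM against 798.4 to 3360 FPKM in the other 5. Control 3 held thyroid transcripts. Its thyroglobulin gene TG stood at 4698 CPM (counts scaled to library size with TMM factors), against 4.27 to 6.79 CPM elsewhere. In Oxy@Lipo/Gel 2 and 3 smooth muscle markers summed to 9325 and 11710 FPKM, against 610.0 to 1727 FPKM in the other 4 libraries. In bulk tissue, fewer cells of a type and less RNA per cell cannot be told apart.

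The subunit genes were abundant, and their median spread between control libraries was smaller than that of all genes tested. All 61 passed the filter on low counts, and 60 of them had at least 100 counts in every library. The lowest single count, 26, belonged to NDUFA4L2. Their median level over the 6 libraries was 86.8 FPKM, against 4.51 FPKM for the 18676 genes tested. The coefficient of variation over the control libraries had a median of 12.0% among the subunit genes and 24.0% among all genes tested. Among the subunit genes it reached 46.2%. The genes compared were not matched for level, and this spread includes differences between the samples.

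Per gene length, 26 subunit genes exceeded 100 FPKM, of which 16 were NDUF genes, 10 were ATP5 genes and 0 were SDH genes. The highest level was that of ATP5ME, subunit e of the membrane part of the ATP synthase, at a mean of 305.5 FPKM. ATP5MJ, a small proteolipid of the same part, followed at 295.2 FPKM, and ATP5F1E, the epsilon subunit, at 253.7 FPKM. ATP5F1B, the catalytic beta subunit, stood at 250.8 FPKM. Levels of these 4 neighbours were set by genes of very different length, from 320 bases for ATP5ME to 1759 bases for ATP5F1B. NDUFA1, a small subunit of the membrane arm of complex I, was the most abundant complex I gene at 241.3 FPKM.

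At the low end, 5 genes were under 10 FPKM. These were SDHC at 8.62 FPKM, NDUFS1 at 6.06 FPKM, NDUFA4L2 at 5.31 FPKM, NDUFS4 at 5.06 FPKM and NDUFA10 at 3.98 FPKM. Of these, NDUFA10, NDUFS4 and NDUFS1 have long gene models in the deposited values, of 17766, 8114 and 7100 bases, and a long model lowers FPKM where reads fall on only a part of it. In CPM, which do not divide by length, NDUFA10 stood near most of its complex, at 62.8 to 76.0 CPM over the libraries. The order of the 61 genes was alike in all libraries: Spearman's rho of their FPKM values between libraries was 0.956 to 0.993 over the 15 pairs, as a description.

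**Figure D1:**
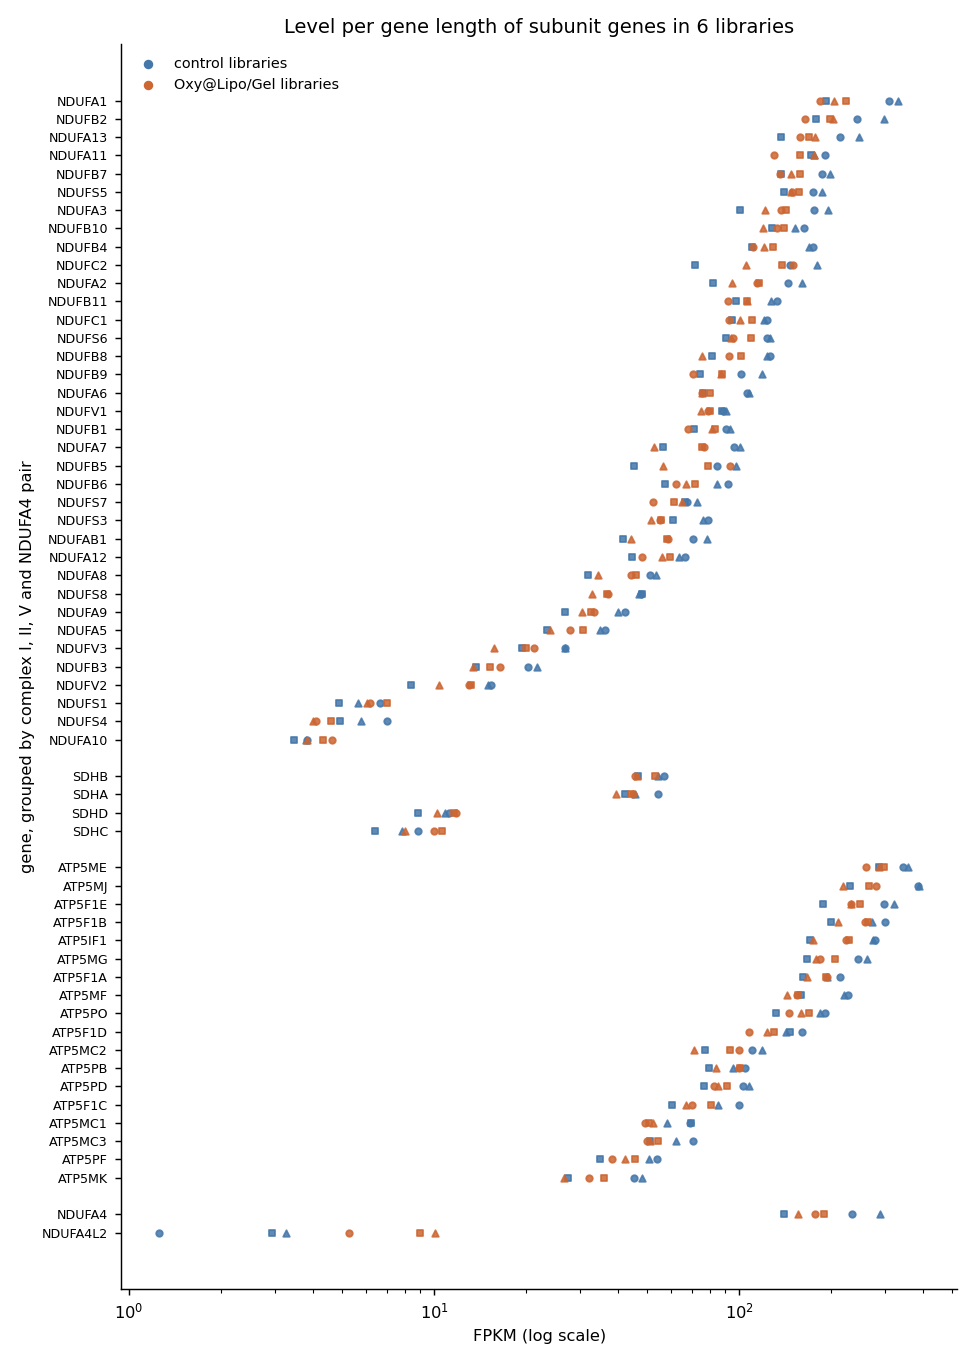
FPKM on a log scale of 60 of the 61 subunit genes in the 3 control and the 3 Oxy@Lipo/Gel libraries, ordered by mean level within complex I, complex II, complex V and the NDUFA4 pair. Points of the same gene lie close together for most genes, and NDUFA4L2, with a mean of 5.31 FPKM, lies far below NDUFA4.

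Between the groups, most subunit genes were slightly lower in the Oxy@Lipo/Gel libraries, and none passed the test. By edgeR's quasi-likelihood test with Benjamini-Hochberg adjustment over all 18676 genes, 0 of 61 were called at 0.05, and the lowest adjusted p was 0.121. Over all genes tested, 0.851% were called higher and 0.685% lower. At an unadjusted p under 0.05, 7 of the 61 subunit genes (11.5%) passed by edgeR, 6 lower and 1 higher, against 23.3% of all genes tested, 12.6% lower and 10.7% higher. DESeq2 called 3, which were NDUFS3 and ATP5MF in the lower direction and NDUFA4L2 in the higher, where it called 13.3% of all genes in either direction.

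Fold changes below 0 were measured for 56 of the 61 genes (91.8%), against 53% of all genes tested. The median log2 fold change was -0.23, against -0.04 over all genes tested. The 5 genes above 0 were NDUFA4L2, SDHC, NDUFA10, NDUFS1 and SDHD. Every control library exceeded every Oxy@Lipo/Gel library in normalised counts for 17 of the 61 genes (27.9%), against 17.7% of all genes tested. The opposite order held for 3 genes (4.92%), against 12.2% of all genes. For 60 of the 61 genes the 95% interval of the log2 fold change lay within 1 unit of 0, and over these 60 its bounds ran from -0.92 to 0.64. The exception was NDUFA4L2.

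**Figure D2:**
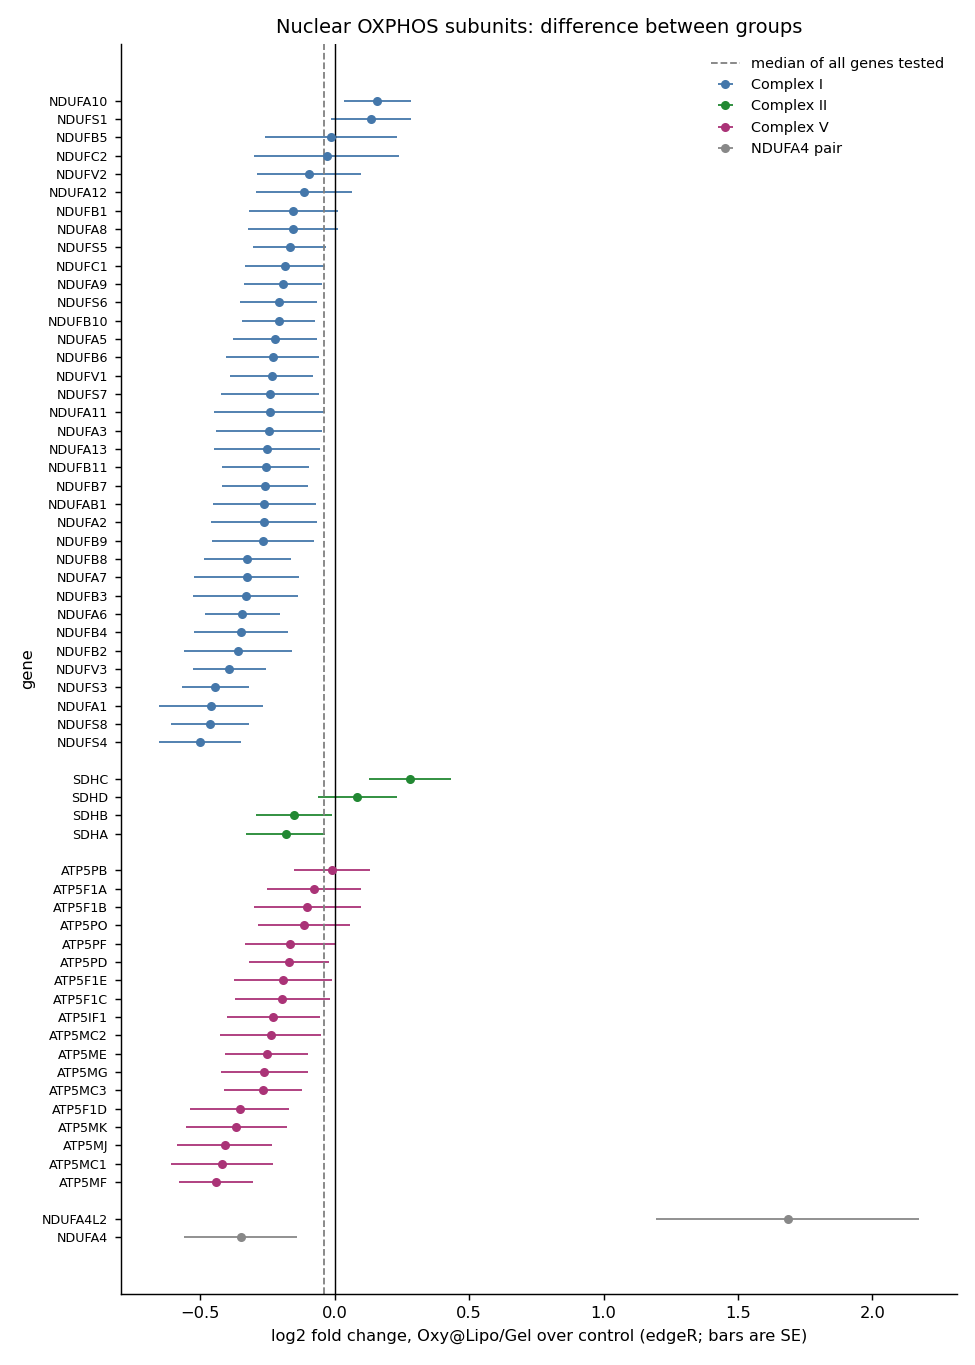
log2 fold change of 60 of the 61 subunit genes, Oxy@Lipo/Gel over control, with bars of 1 SE from edgeR, grouped by complex. The dashed line marks the median of all genes tested, -0.04. All genes of complex V and all shown genes of complex I except NDUFA10 and NDUFS1 lie below 0, and NDUFA4L2 stands apart at 1.68.

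The lower values were not shared evenly by the libraries. Oxy@Lipo/Gel 1 was the lowest of the 6 libraries for 39 of the 61 genes, and Oxy@Lipo/Gel 2 for 0. Control 1 was the highest for 27 genes and control 3 for 20. Control 2 was the lowest of the controls for 41 genes. The mean log2 CPM of the 61 genes, relative to the mean of the 6 libraries, was 0.17, -0.04 and 0.14 in control 1 to 3 and -0.23, 0.00 and -0.05 in Oxy@Lipo/Gel 1 to 3. On that scale control 2 lay below Oxy@Lipo/Gel 2, so the groups overlapped. Leaving out Oxy@Lipo/Gel 1 gave a median log2 fold change of -0.15, and leaving out control 2 gave -0.29.

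In complex I, 35 of 37 genes had fold changes below 0, with a median log2 fold change of -0.24, and 0 passed the test. Groups did not overlap for 13 of the 37 genes in the lower direction and for 1 in the higher, against 17.7% and 12.2% of all genes tested. The 7 core subunits, which carry the flavin and the iron-sulphur clusters, had a median of -0.23, and 6 of them were below 0. NDUFS3, a core subunit of the peripheral arm, measured 68.7, 63.1 and 63.5 CPM in control 1 to 3 and 44.8, 49.3 and 49.7 CPM in Oxy@Lipo/Gel 1 to 3. The groups did not overlap, and all 3 Oxy@Lipo/Gel libraries were near each other. The means were 65.1 ± 3.08 and 47.9 ± 2.75 CPM (SD, n = 3 each), a log2 difference of -0.44 ± 0.12 (SE, edgeR adjusted p = 0.121; 0.013 to 0.439 over the alternatives).

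NDUFS8, an iron-sulphur subunit on the path to ubiquinone, measured 68.5, 82.8 and 64.8 CPM in the controls and 50.1, 53.9 and 52.8 CPM in the Oxy@Lipo/Gel libraries. Again the groups did not overlap, and control 2 was the highest library. Its log2 fold change was -0.46 ± 0.14 (SE, edgeR adjusted p = 0.140; 0.0564 to 0.441 over the alternatives). NDUFV1, which binds NADH and the flavin, was lower in every Oxy@Lipo/Gel library, with a log2 fold change of -0.23. NDUFS1, the largest core iron-sulphur subunit, went to the other side, with a log2 fold change of 0.13 ± 0.15 (SE) and overlapping groups.

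Among the accessory subunits NDUFS4, NDUFS5, NDUFS6 and NDUFV3, all 4 were below 0, with a median log2 fold change of -0.30. NDUFS4, whose loss causes Leigh syndrome in humans, measured 54.8, 46.2 and 43.5 CPM in the controls and 30.3, 36.9 and 35.0 CPM in the Oxy@Lipo/Gel libraries. Its groups did not overlap, with control 1 the highest and Oxy@Lipo/Gel 1 the lowest library. At -0.50 ± 0.15 (SE, edgeR adjusted p = 0.137; 0.0555 to 0.417 over the alternatives), its log2 fold change was the lowest of the 61 genes.

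The 13 NDUFA-named accessory subunits had a median log2 fold change of -0.24, and 12 were below 0. NDUFA1 measured 100.2, 74.8 and 103.6 CPM in the controls and 55.8, 73.6 and 73.3 CPM in the Oxy@Lipo/Gel libraries. Control 2 lay just above the highest Oxy@Lipo/Gel library, so the separation was narrow. Its log2 fold change was -0.46 ± 0.19 (SE, edgeR adjusted p = 0.218; 0.134 to 0.518 over the alternatives). NDUFA10, an accessory subunit of the membrane arm, measured 65.9, 71.6 and 62.8 CPM in the controls and 74.5, 76.0 and 73.1 CPM in the Oxy@Lipo/Gel libraries. It was the sole complex I gene whose Oxy@Lipo/Gel values all lay above the controls, and its log2 fold change was 0.16 ± 0.12 (SE, edgeR adjusted p = 0.479; 0.247 to 0.680 over the alternatives).

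All 11 NDUFB-named subunits, which sit in the membrane arm, were below 0, with a median of -0.26 and a range from -0.36 for NDUFB2 to -0.01 for NDUFB5. Groups did not overlap for 3 of the 11, NDUFB3, NDUFB7 and NDUFB10, all lower in Oxy@Lipo/Gel, against 17.7% of all genes tested. NDUFB3 was the least abundant of them in counts, at 7.74 to 9.80 CPM in the controls and 7.02 to 7.29 CPM in the Oxy@Lipo/Gel libraries. NDUFC1 and NDUFC2 had log2 fold changes of -0.19 and -0.03.

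Complex II, succinate dehydrogenase, which also serves the tricarboxylic acid cycle, had 2 genes below 0 and 2 above, with a median log2 fold change of -0.03, which changed sign with the scaling. Its difference from complex I was not tested. SDHA, the flavoprotein, measured 128.9, 120.6 and 104.2 CPM in the controls and 100.2, 106.7 and 104.8 CPM in the Oxy@Lipo/Gel libraries. Control 3 lay inside the Oxy@Lipo/Gel range. The log2 fold change was -0.18 ± 0.15 (SE, edgeR adjusted p = 0.490; 0.313 to 0.823 over the alternatives). SDHB, the iron-sulphur subunit, had a log2 fold change of -0.15 ± 0.14 (SE), with 51.5 to 55.9 CPM in the controls and 42.2 to 53.3 CPM in the Oxy@Lipo/Gel libraries.

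SDHC, which anchors the enzyme in the membrane, measured 23.5, 20.4 and 20.1 CPM in the controls and 24.9, 28.9 and 23.9 CPM in the Oxy@Lipo/Gel libraries. Its groups did not overlap, although control 1 and Oxy@Lipo/Gel 3 were close. The log2 fold change was 0.28 ± 0.15 (SE, edgeR adjusted p = 0.315; 0.177 to 0.600 over the alternatives). SDHD, the other anchor, had a log2 fold change of 0.08 ± 0.15 (SE), with 13.6 to 14.4 CPM in the controls and 14.3 to 15.3 CPM in the Oxy@Lipo/Gel libraries.

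A ratio of FPKM values within a library does not depend on library scaling. SDHC over SDHA was 0.163, 0.151 and 0.172 in the controls and 0.222, 0.242 and 0.203 in the Oxy@Lipo/Gel libraries. SDHD over SDHA was 0.206, 0.210 and 0.239 in the controls and 0.262, 0.263 and 0.259 in the Oxy@Lipo/Gel libraries. Neither ratio overlapped between the groups. SDHB over SDHA did overlap, at 1.05 to 1.19 in the controls against 1.02 to 1.21 under Oxy@Lipo/Gel. These ratios were chosen after the values were seen and carry no test.

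**Figure D3:**
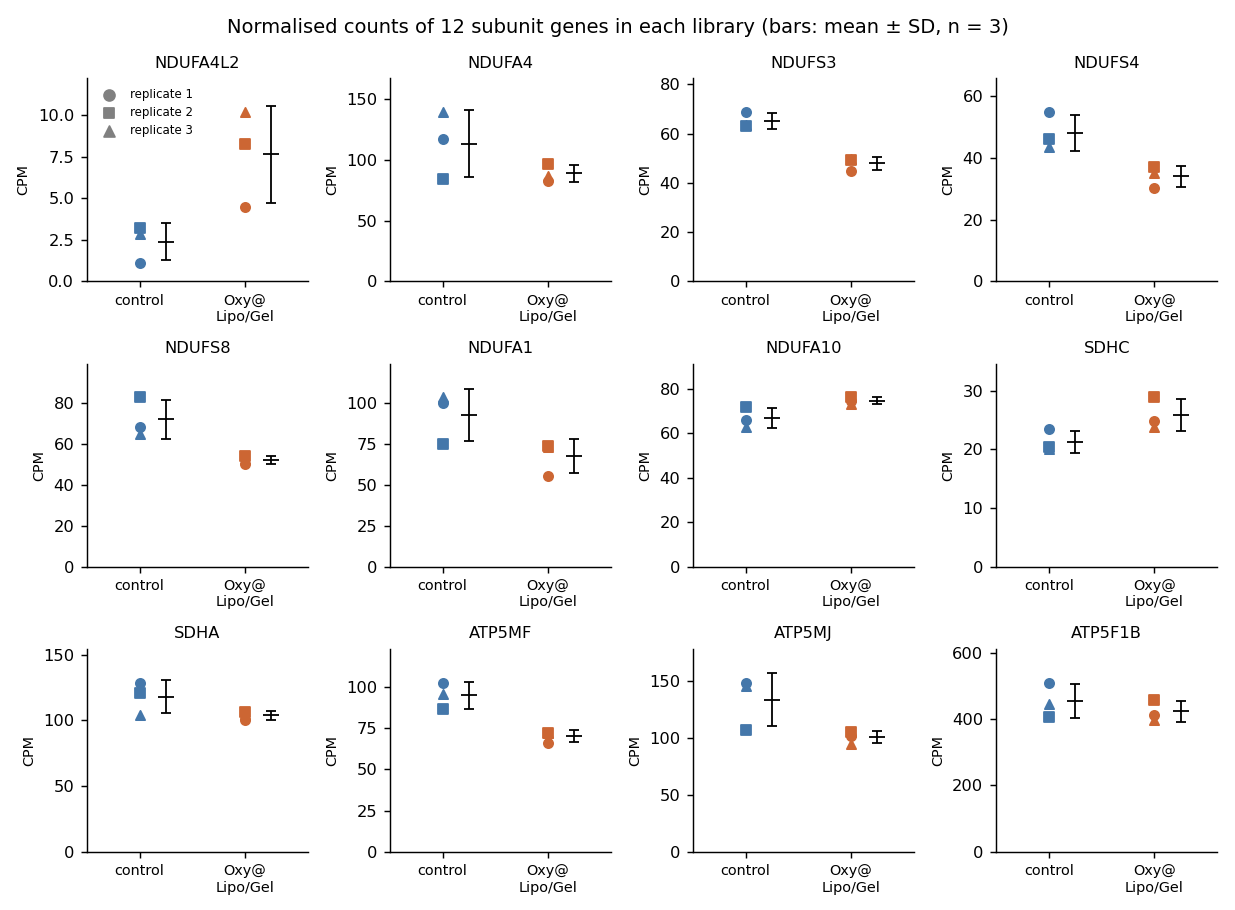
Normalised counts (CPM) of 12 subunit genes in each library, with the mean and SD of 3 libraries beside the points and each axis starting at 0. NDUFS3, NDUFS4, NDUFS8 and ATP5MF lie lower in every Oxy@Lipo/Gel library, SDHC, NDUFA10 and NDUFA4L2 higher, and SDHA and ATP5F1B overlap.

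In complex V, all 18 genes had fold changes below 0, with a median of -0.23, and 0 passed the test. Groups did not overlap for 4 of the 18 genes, all lower in Oxy@Lipo/Gel, a share near the 17.7% of all genes tested. The values differed by part of the enzyme. The 5 accessory subunits of the membrane part had a median of -0.37, the 3 subunit c genes -0.27, the 5 subunits of the catalytic F1 head -0.19 and the 4 peripheral stalk subunits -0.14. Differences between these parts were not tested.

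ATP5MF, subunit f of the membrane part, measured 102.6, 86.4 and 95.9 CPM in the controls and 65.7, 72.0 and 72.1 CPM in the Oxy@Lipo/Gel libraries. Its groups lay well apart. The means were 94.97 ± 8.17 and 69.9 ± 3.65 CPM (SD, n = 3 each), a log2 difference of -0.44 ± 0.14 (SE, edgeR adjusted p = 0.137; 0.0362 to 0.469 over the alternatives). ATP5MJ measured 148.5, 106.8 and 145.3 CPM in the controls and 102.0, 105.2 and 94.5 CPM in the Oxy@Lipo/Gel libraries. Control 2 lay just above Oxy@Lipo/Gel 2, and the log2 fold change was -0.41 ± 0.18 (SE, edgeR adjusted p = 0.227; 0.103 to 0.571 over the alternatives). ATP5ME measured 106.3, 106.7 and 106.6 CPM in the controls and 75.4, 94.0 and 99.0 CPM in the Oxy@Lipo/Gel libraries, where Oxy@Lipo/Gel 1 stood below the other two. Its log2 fold change was -0.25 ± 0.15 (SE, edgeR adjusted p = 0.369; 0.367 to 0.698 over the alternatives).

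Subunit c, the rotor ring protein, is made from ATP5MC1, ATP5MC2 and ATP5MC3, which encode the same mature protein. Of the summed FPKM of the 3 genes, ATP5MC1 gave 29.1% ± 5.58 in the controls and 26.7% ± 2.80 in the Oxy@Lipo/Gel libraries (SD, n = 3 each), ATP5MC2 gave 44.3% ± 5.35 and 46.1% ± 4.82, while ATP5MC3 gave 26.7% ± 1.42 and 27.3% ± 2.13. The shares differed by less than the spread between replicates, and they were chosen after the values were seen. ATP5MC1 itself measured 56.2, 68.0 and 45.4 CPM in the controls and 37.5, 42.1 and 47.2 CPM in the Oxy@Lipo/Gel libraries, and its log2 fold change was -0.42 ± 0.19 (SE, edgeR adjusted p = 0.241; 0.144 to 0.583 over the alternatives).

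ATP5F1A and ATP5F1B, the alpha and beta subunits of the catalytic ring, had log2 fold changes of -0.08 ± 0.17 and -0.10 ± 0.20 (SE). The FPKM ratio of ATP5F1B to ATP5F1A was 1.34 ± 0.0974 in the controls and 1.32 ± 0.0586 in the Oxy@Lipo/Gel libraries (SD, n = 3 each). ATP5PB, subunit b of the stalk, measured 132.4, 120.8 and 116.4 CPM in the controls and 118.8, 130.1 and 118.3 CPM in the Oxy@Lipo/Gel libraries, and its log2 fold change of -0.01 ± 0.14 (SE) changed sign with the scaling. ATP5IF1, the inhibitor that blocks hydrolysis of ATP by the enzyme, measured 126.9, 93.9 and 120.9 CPM in the controls and 95.8, 107.0 and 89.1 CPM in the Oxy@Lipo/Gel libraries. Its groups overlapped, and its log2 fold change was -0.23 ± 0.17 (SE, edgeR adjusted p = 0.465; 0.222 to 0.729 over the alternatives).

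NDUFA4L2 had the largest difference of the 61 genes, in the direction opposite to most. It is induced by hypoxia through HIF1 and is also known from pericytes and vascular smooth muscle. Its counts were 26, 47 and 60 in the controls and 108, 197 and 190 in the Oxy@Lipo/Gel libraries. In normalised counts it measured 1.13, 3.19 and 2.85 CPM in the controls and 4.48, 8.30 and 10.2 CPM in the Oxy@Lipo/Gel libraries. The groups did not overlap, with control 1 and Oxy@Lipo/Gel 1 the lowest of their groups. The log2 fold change was 1.68 ± 0.49 (SE, 95% interval 0.51 to 2.86), and it did not pass the test (edgeR adjusted p = 0.128; 0.0112 to 0.370 over the alternatives, the lowest with DESeq2).

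Smooth muscle markers, 12 of 12 of which were tested, had a mean log2 CPM relative to all libraries of -0.51, -1.46 and -1.89 in the controls and -0.78, 2.12 and 2.53 in the Oxy@Lipo/Gel libraries. On that mean Oxy@Lipo/Gel 1 lay within the control range. Of the 12 markers, 2 were higher in every Oxy@Lipo/Gel library, a share near the 12.2% of all genes tested. One of them, MYOCD, stood at 9.01 CPM in Oxy@Lipo/Gel 1, against 4.28 to 4.95 CPM in the controls. For all markers but these 2 the groups overlapped, with Oxy@Lipo/Gel 1 below control 1. MYH11, for example, stood at 593.1 CPM in Oxy@Lipo/Gel 1 and 738 CPM in control 1. The part of these cells in the NDUFA4L2 difference was not tested.

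NDUFA4 itself measured 116.8, 84.2 and 139.2 CPM in the controls and 83.0, 97.0 and 87.0 CPM in the Oxy@Lipo/Gel libraries, with overlapping groups. Its log2 fold change was -0.35 ± 0.21 (SE, edgeR adjusted p = 0.364; 0.136 to 0.645 over the alternatives). NDUFA4L2 made up 0.532%, 2.05% and 1.12% of the FPKM of the pair in the controls and 2.90%, 4.52% and 6.07% in the Oxy@Lipo/Gel libraries. The means were 1.23% ± 0.766 and 4.50% ± 1.59 (SD, n = 3 each). The difference of 3.26 percentage points had p = 0.1 by a two-sided exact permutation test, which is the smallest p that 3 libraries against 3 can give. In both groups NDUFA4 remained by far the more abundant gene of the pair.

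The deposited gene lengths of the subunit genes had a median of 755 bases, against 3462 bases over all genes tested. Of the 35 subunit genes under 1000 bases, 34 were below 0, with a median log2 fold change of -0.26, while all 1659 tested genes of that length had a median of -0.25 and 65.8% of them were below 0. Between 1000 and 2000 bases, 18 of 19 subunit genes were below 0, with a median of -0.17, against -0.09 and 56.6% for all 3316 genes. At 2000 bases and over, 4 of 7 were below 0, with a median of -0.10, against -0.01 and 50.5% for all 13701 genes. The median of the shortest subunit genes was thus close to that of other genes of their length, while the number of them below 0 was above it. The length ranges were chosen after values were seen, and the part of length in the differences was not tested.

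**Figure D4:**
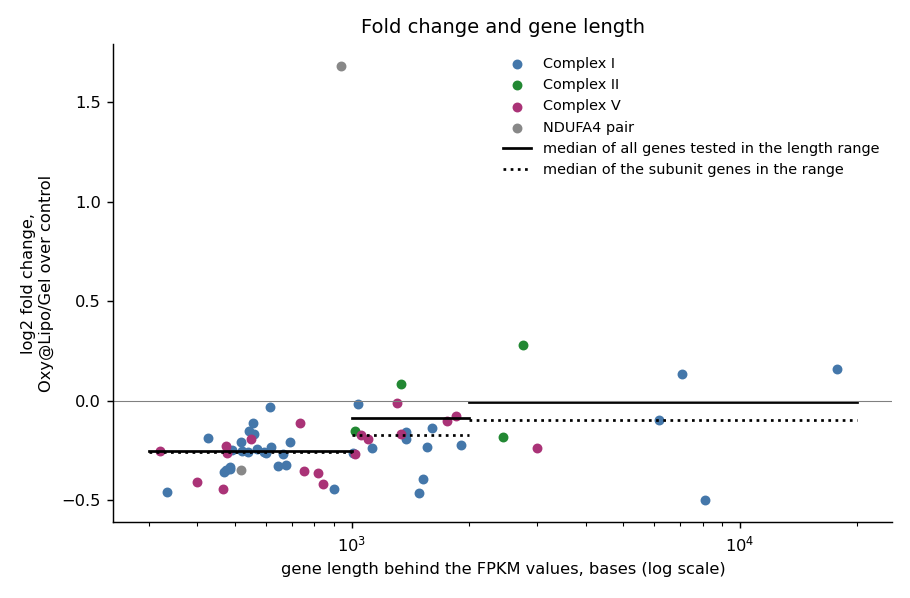
log2 fold change of the 61 subunit genes against gene length in bases (log scale), with the median of the subunit genes (dotted) and of all genes tested (solid) in 3 length ranges. Under 1000 bases the medians are -0.26 and -0.25, and the solid line rises to -0.01 at 2000 bases and over.

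Assembly factors, which build the complexes but are not part of them, were read from lists. Of 17 complex I assembly factors, 15 were below 0, against 53% of all genes tested. Their median log2 fold change was -0.24, against -0.04 over all genes tested. Of the 17, 1 was called, in the lower direction, where 0.685% of all genes tested were called. NDUFAF7, a methyltransferase that acts early in the assembly of complex I, measured 25.7, 28.3 and 25.9 CPM in the controls and 14.6, 14.9 and 15.2 CPM in the Oxy@Lipo/Gel libraries. The libraries of each group were close together and far from those of the other. NDUFAF7 fell by 0.84 ± 0.14 on the log2 scale (SE, edgeR adjusted p = 0.0433). This call was held in 3 of 16 alternatives and lost in the other 13, where the adjusted p reached 0.272, among them every fit without a library.

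The remaining assembly lists held 0 called genes. Complex II factors had a median of -0.11 over 4 genes, led by SDHAF4, which aids assembly of flavinated SDHA, at -0.51 (edgeR adjusted p = 0.166; 0.142 to 0.497 over the alternatives). For complex III, 2 of 9 listed factors were in the table, and TTC19 had a log2 fold change of -0.71 (edgeR adjusted p = 0.163; 0.121 to 0.487). For complex IV it was 5 of 26, with HIGD2A at -0.47 (edgeR adjusted p = 0.109; 0.00598 to 0.407). Of the 5 complex V factors 3 were below 0, and FMC1 had a log2 fold change of -0.28 (edgeR adjusted p = 0.306; 0.312 to 0.605).

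Among 14 genes of ubiquinone synthesis and electron transfer flavoproteins, 7 were below 0 and 7 above, with 0 called. ETFB, a subunit of the flavoprotein that carries electrons from fatty acid oxidation, measured 157.8, 152.4 and 168.7 CPM in the controls and 91.2, 98.7 and 93.9 CPM in the Oxy@Lipo/Gel libraries, and its log2 fold change was -0.76 ± 0.14 (SE, edgeR adjusted p = 0.0576; 8.4e-08 to 0.306 over the alternatives). Its groups lay far apart for their spread. Of 18 tricarboxylic acid cycle enzymes 9 were below 0, with a median of -0.01, and 0 were called. IDH2, the NADP-dependent mitochondrial isocitrate dehydrogenase, had the lowest p, at 53.8 ± 6.67 CPM in the controls and 81.5 ± 14.3 CPM in the Oxy@Lipo/Gel libraries (SD, n = 3 each; edgeR adjusted p = 0.136; 0.024 to 0.406).

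UCP3, an uncoupling protein of the inner membrane best known from skeletal muscle, measured 3.00, 3.60 and 2.05 CPM in the controls and 0.498, 0.548 and 0.483 CPM in the Oxy@Lipo/Gel libraries. It fell by 2.48 ± 0.34 on the log2 scale (SE, edgeR adjusted p = 0.0338), a call held in 10 of 16 alternatives and lost with an adjusted p of up to 0.190 in the others. The fold change ran from -2.68 to -0.82 over the alternatives, the value nearest 0 being that of limma-trend with a pseudocount of 1 FPKM, which understates changes of low genes. Skeletal muscle markers had a mean relative log2 CPM of -0.01, 0.53 and -0.15 in the controls and -0.27, -0.05 and -0.05 in the Oxy@Lipo/Gel libraries, and their part in the UCP3 difference was not tested. UCP2, the other uncoupling gene tested, had overlapping groups and a log2 fold change of 0.49.

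Of 8 carriers and kinases that exchange ADP, ATP and phosphate, 5 were below 0 and 0 were called, and CKMT2, a mitochondrial creatine kinase, had the lowest p at a log2 fold change of 0.92 (edgeR adjusted p = 0.249; 0.179 to 0.494). Regulators of mitochondrial biogenesis had a median of -0.31 over 14 genes, 11 of them below 0, and 0 were called. The nuclear receptor gene ESRRG had the lowest p of these, at 2.95 ± 1.58 CPM in the controls and 8.41 ± 1.93 CPM in the Oxy@Lipo/Gel libraries (SD, n = 3 each; edgeR adjusted p = 0.123; 0.0112 to 0.368). The 13 genes for cristae and cardiolipin had a median of -0.14, with 10 below 0 and MICOS13 at -0.34 (edgeR adjusted p = 0.187; 0.141 to 0.521).

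The 76 mitochondrial ribosomal protein genes had a median log2 fold change of -0.24, near that of the subunit genes, with 60 below 0 and 0 called. Their MRPL28 was at 44.6 ± 1.47 CPM in the controls and 28.1 ± 1.30 CPM in the Oxy@Lipo/Gel libraries (SD, n = 3 each; edgeR adjusted p = 0.0565; 2.1e-05 to 0.306). The 81 cytosolic ribosomal protein genes tested had a lower median of -0.66, with 80 below 0 and 0 called, and RPS26 had the lowest p, at a log2 fold change of -1.12 (edgeR adjusted p = 0.0617; 9.28e-06 to 0.287). In these genes control 2 was the highest library, at a mean relative log2 CPM of 0.66, whereas it was the lowest control for the subunit genes.

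Markers of other cell types differed between libraries and groups. Multiciliated cell markers, 9 of 10 of which were tested, stood at 0.52, -1.90 and 0.75 in the controls and 0.68, 0.47 and -0.53 in the Oxy@Lipo/Gel libraries, in mean relative log2 CPM. Control 2 was the lowest control for these markers and for 41 subunit genes. Oxy@Lipo/Gel 1, the lowest of the 6 libraries for 39 subunit genes, was the highest of its group for these markers. Gland markers, 9 genes, stood at -1.12 to -2.19 in the controls against 1.05 to 2.32 under Oxy@Lipo/Gel, B cell markers, 7 genes, at -1.24 to -1.44 and 0.45 to 1.86, and chondrocyte markers, 8 genes, at -0.66 to -2.27 and 0.86 to 1.73. Of these, 5 gland, 6 B cell and 3 chondrocyte genes were called higher by edgeR, against 0.851% of all genes tested. Of the 9 gland markers, 1 had a fold change below 0. The mean levels of the basal epithelial, fibroblast and adipocyte lists overlapped between the groups. Even so, 3 of 7 fibroblast markers were higher in every Oxy@Lipo/Gel library, against 12.2% of all genes tested. The part of any of these cells in the subunit differences was not tested.

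**Figure D5:**
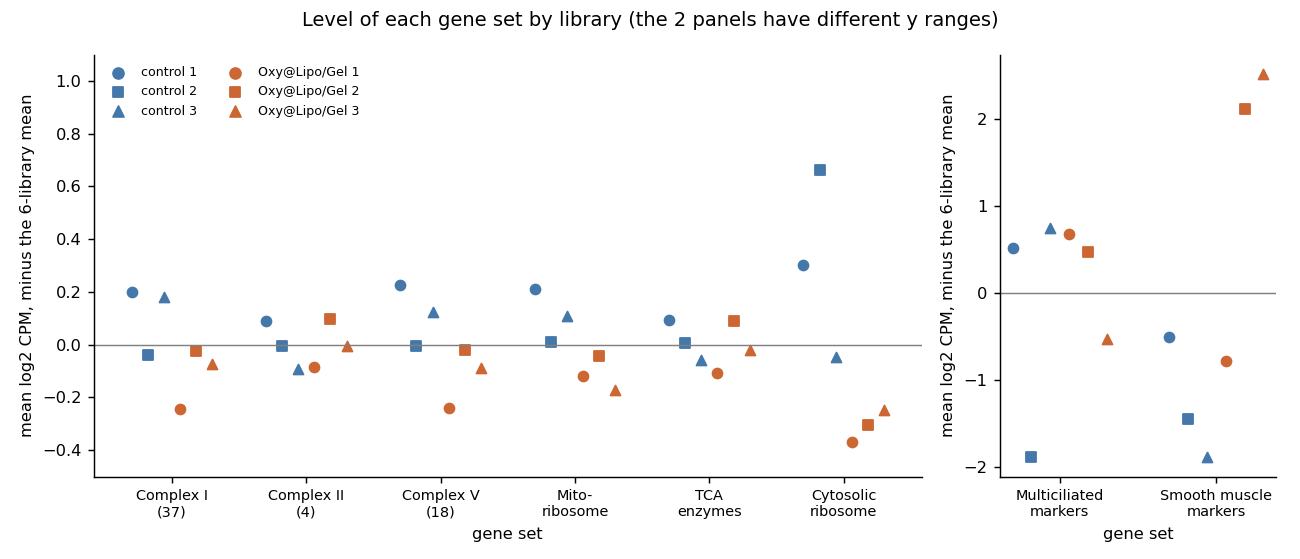
Mean log2 CPM of each gene set in each library, minus the mean of the 6 libraries, for complexes I, II and V, the mitochondrial and cytosolic ribosomes, the tricarboxylic acid cycle and, on a wider axis, multiciliated and smooth muscle markers. Complexes I and V lie highest in control 1 and lowest in Oxy@Lipo/Gel 1, within 0.25 log2 units of the mean, while the marker lists span several units.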

How the data were processed

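RNA of rhesus tracheal tissue was measured by poly(A), dUTP strand-specific, paired sequencing, per the labels' protocols, in 3 control and 3 Oxy@Lipo/Gel libraries, grouped by the labels' descriptions. Aligner, counter, annotation and the use of strand were not given in the sources used here. The submitters' processing notes list GRCm38, rheMac8 and Mmul_8.0.1, with no role stated. The deposited table holds whole-number counts for 28536 genes. The deposited FPKM values are, per the file headers, fragments scaled to gene length and library total. For 17796 of 17796 genes with at least 5 counts in every library, count and FPKM gave a single length (within 0.01 base), so the FPKM values are no independent measurement.

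Counts were tested with edgeR 4.0.16 (R 4.3.3; quasi-likelihood, TMM, filterByExpr with a minimum count of 10 and total of 15, Benjamini-Hochberg at 0.05) over 18676 genes. CPM use TMM library sizes. On that scale a count of 3 corresponds to 0.124 to 0.203 CPM, counting error only. Replicate pairs differed by more than sampling noise (lowest chi-square 46.18 per degree of freedom). The fit was also run on simulated data, with changes larger than those measured for every subunit gene but NDUFA4L2. That run does not show how often changes as small as theirs would be called. Intervals are 95% from edgeR's total degrees of freedom.

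The genes, lists and tests were chosen with earlier results of these data known. Named by rule were called genes, the 3 genes of smallest p, the extremes of fold change and the highest FPKM of each complex, NDUFA4, NDUFA4L2 and ATP5IF1, and per list at most 3 called genes or that of smallest p. Cell-type lists are given as levels. NDUFS1, NDUFV1, NDUFB2, NDUFB3, NDUFB5, NDUFB7, NDUFB10, the NDUFC genes, SDHD, ATP5MC2, ATP5MC3, ATP5F1A, ATP5F1B, ATP5F1E, UCP2 and TG were named after their values were seen. Alternatives were other size factors and filters, DESeq2 1.42.0, limma 3.58.1 (voom, and trend on log2 FPKM with a pseudocount of 1 or 0.1), the replicate number as a block, each library left out and, added after seeing the data, library totals in place of TMM. The values of 1 gene are not reported here singly. Figures used matplotlib 3.10.9.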

Additional observations from a re-analysis of the deposited data

How the results depend on the processing

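Of all genes, 287 were called with edgeR. DESeq2 called 2492, library totals in place of TMM gave 183, and leaving out a library gave 0 to 628. The count was 0 without control 1, control 3 or Oxy@Lipo/Gel 2 (3189, 4858 and 2271 genes at an unadjusted p under 0.05). Subunit genes called were 0 in 15 of 16 alternatives and 3 with DESeq2. Over the alternatives, 52 to 56 of the 61 were below 0, their median log2 fold change ran from -0.29 to -0.15, and it lay 0.103 to 0.272 below the median of all genes. Complex I ran from -0.32 to -0.15, complex V from -0.29 to -0.17 and complex II from -0.07 to 0.02. The NDUFA4L2 share differed by 5.62 percentage points in counts, and by 2.47 or more without a library. NDUFA4L2 ran from 1.33 to 1.96. ATP5PB turned above 0 with median-of-ratios (0.0342) and upper-quartile factors (0.0238), DESeq2 (0.034), limma-trend with a pseudocount of 1 (0.0297) or 0.1 (0.03) and library totals (0.0255). Without a library it ran from -0.0568 to 0.0385, above 0 in 4 of 6 such fits. The cause was not tested.

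The labels number replicates 1 to 3 in each group, and deviations of same-numbered samples correlated at 0.234, -0.379 and -0.197. With 3 libraries a group that differ strongly in marker content, these values cannot decide whether the numbers pair the samples. With the replicate block 0 genes were called (2866 at an unadjusted p under 0.05), and of the subunit genes 0. Control 1 correlated best with Oxy@Lipo/Gel 1, control 2 with 3 and control 3 with 2.

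With 3 libraries a group, the intervals of the 60 genes other than NDUFA4L2 reach 0.92 below and 0.64 above 0 on the log2 scale, so differences of up to those sizes lie within them, and a p that missed the threshold does not show equal levels.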
